A study of Rattus norvegicus with 2 samples.

Results

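Predicted long noncoding RNAs (lncRNAs) are transcripts that the authors' table lists without an Ensembl gene or symbol, under identifiers that start with XLOC and carry the source entry for predicted lncRNA. All rows with that entry were taken, which gave 1268 of the 20367 transcripts in the table, grouped by identifier into 1125 loci. They were measured in RBL-2H3, a rat basophilic leukaemia line used as a mast cell model, in 1 library a group. Cells of the saline library had normal saline. Those of the treated library had PM2.5, that is fine particulate matter, and were also given IgE and its antigen DNP-HSA, a pair that crosslinks the IgE receptor of mast cells. In the labels this sample is titled PM100, and the table's column x100 was taken as this library, since the other column, NS, carries the title of the saline sample; what the 100 counts is not stated. Neither IgE nor antigen is named in the labels of the saline cells, and no time is given. Since each group is 1 library, the differences below are between 2 libraries, without replicates and without a test.

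lncRNAs are transcribed mostly by RNA polymerase II and are often spliced and polyadenylated like messenger RNA, but they encode no long protein. Many are made at low levels and are removed by the nuclear exosome, while others act in transcription, chromatin or RNA processing at their own locus or elsewhere. A predicted lncRNA is a transcript model assembled from reads and judged noncoding by its sequence, so its function is as a rule unknown. No source used here says from which reads and with which programs these models were predicted, and the part of that step in the values below was not tested. The positions, lengths and sequences of the loci were not analysed here, so they are described by their identifiers. Levels are normalised counts not divided by length, so a higher level of 1 transcript than of another does not show more molecules.

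The saline library held 7279671 reads and the treated library 3964955, so it was 1.84 times as deep. Of 12 mast cell markers, 11 were measured and all 11 had reads in both libraries, with Kit, the stem cell factor receptor, at normalised counts of 10361 and 8985. By the rule given below, Cpa3 (152 and 509) and Mcpt1 (115 and 249) were called higher in the treated library and Hdc (2473 and 1178) lower. The other measured ones were not called. Over all 15409 symbols 7.31% were called higher and 9.6% lower. No T cell, B cell or epithelial marker was listed, and the fibroblast markers summed to 13.9 in the saline and 28.1 in the treated library. All 3 macrophage markers were listed, with a sum of 1273 in the saline and 510 in the treated library that was mostly Csf1r (1215 and 472), while Cd68 had 19 reads against 0. Their part in the values below was not tested.

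Most predicted lncRNAs had low counts. Their median normalised count was 14.7 in the saline library, with quartiles of 6.94 and 42.5 and a highest value of 43860. In the treated library the median was 13.2, the quartiles were 0 and 43.4, and the highest value was 17906. The medians rest on 17 and 8 reads. In the saline library 607 transcripts (47.9%) lay between 10 and 100, 159 lay between 100 and 1000, and 18 were at 1000 or above. In the treated library these numbers were 519, 151 and 38. The treated library thus had fewer members in the middle of the range and more at its top. No read was found for 82 members (6.47%) in the saline and for 332 (26.2%) in the treated library, whereas a saline library thinned to the treated depth would be expected to leave 98 at 0. Over all transcripts of the table, 5.21% were at 0 in the saline and 15.7% in the treated library. The transcripts outside the class had 2871 at 0 in the treated library, where the thinned saline library would be expected to leave 1588. Zeros beyond the thinned number were thus not particular to predicted lncRNAs. For comparison, the 410 Ensembl lncRNA transcripts had median normalised counts of 7.81 and 5.78, and the 16528 protein coding transcripts 79.8 and 77.6.

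A few transcripts held much of the signal. Predicted lncRNAs took 3.09% of the saline reads (95% Wilson interval 3.08 to 3.10) and 2.88% of the treated reads (2.86 to 2.90). These intervals cover counting error only, since reads are not independent molecules. XLOC.30726.2 and XLOC.377.4 alone held 40.9% of the saline reads of the class, and the same 2 held 16.6% of the treated ones. Without XLOC.30726.2 and XLOC.377.4, a choice made after their values were seen, the other 1266 took 1.83% of the saline and 2.40% of the treated reads, so the direction of the difference turned. Leaving out either of them alone turned it too, with 2.40% against 2.68% without XLOC.30726.2 and 2.52% against 2.61% without XLOC.377.4. Both were lower in the treated library, so leaving them out could move the difference only this way.

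The 12 members with the highest mean level went both ways. XLOC.30726.2 stood at a normalised count of 43860 in the saline and 13397 in the treated library, a log2 fold of treated over saline of -1.71 (exact 95% interval of the ratio -1.75 to -1.68). XLOC.377.4 stood at 35965 and 17906, a log2 fold of -1.01 (-1.04 to -0.98). XLOC.378.1 and XLOC.28571.1 were also lower, at 8570 against 1860 (-2.20) and 8044 against 3183 (-1.34). Higher in the treated library was XLOC.20464.1, at 4198 in the saline and 11302 in the treated library (1.43). Another transcript of its locus, XLOC.20464.2, was at 2666 and 9517 (1.84). XLOC.17958.3 showed the widest gap of the 12, from 579 to 7000, a log2 fold of 3.59 (3.48 to 3.72). XLOC.2890.4 was higher as well, at 1113 and 4821 (2.11). The other 4 were within 2-fold, with log2 folds of 0.76 for XLOC.32245.4, -0.58 for XLOC.21925.1, -0.07 for XLOC.29838.1 and 0.79 for XLOC.9927.1. Thus 8 of the 12 members with the highest mean counts differed at least 2-fold, 4 in each direction.

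**Figure D1:**
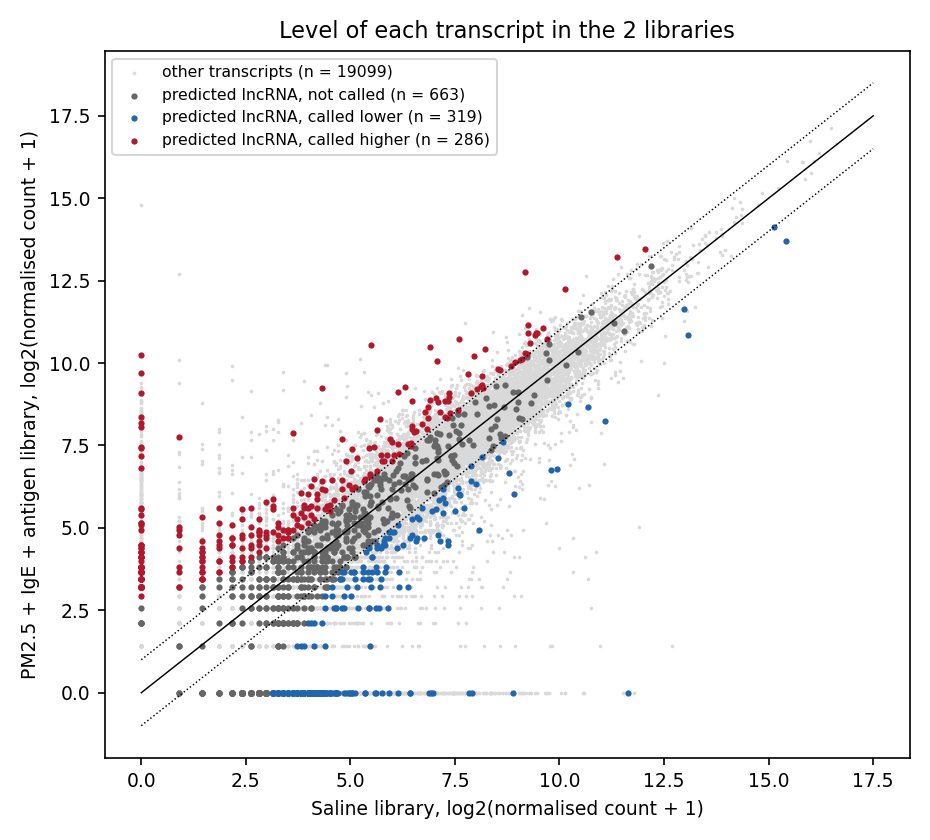
Level of every transcript in the saline library (x axis) and the treated library (y axis), as log2 of the normalised count plus 1; the solid line marks equal levels, the dotted lines a 2-fold difference, and points on an axis had 0 reads in 1 library. Of the 286 predicted lncRNAs called higher, XLOC.20464.1 has the highest mean count (4198 in the saline and 11302 in the treated library). The 319 called lower include a row of 203 at 0 in the treated library as well as the 2 members with the highest mean counts.

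A transcript was called higher or lower when its log2 fold on the normalised count plus 1 was at least 1 either way, its normalised count was at least 1 in 1 library or both, and the exact 95% interval of its ratio excluded equality. By this rule 286 predicted lncRNAs (22.6%) were higher in the treated library and 319 (25.2%) were lower. Over all 20367 transcripts the shares were 10.7% higher and 13.5% lower, or 24.3% either way against 47.7% of the predicted lncRNAs. The median log2 fold of the predicted lncRNAs was -0.32 with quartiles of -2.42 and 1.02, while all transcripts had a median of -0.11 with quartiles of -0.90 and 0.58. Both lower quartiles are values of transcripts with a few saline reads and 0 treated reads, so they depend on the pseudocount. At 30 to 99 reads the quartiles were 1.86 apart for predicted lncRNAs and 1.73 for protein coding transcripts, and at 1000 or more reads 1.92 and 0.84. With the members at 0 in 1 library set against a floor of 3 reads there, or to 0 where the other library was under the floor too, the median of the predicted lncRNAs was -0.07. Among those called lower, 203 had 0 reads in the treated library, of which 58 came short of 2-fold against the floor. Among those called higher, 77 had 0 reads in the saline library. By construction none of these could come short, since a treated count high enough to be called is already more than 2-fold above that floor. Where both libraries had reads, 209 of 854 members were higher and 116 lower, against 1484 and 1506 of 15249 other transcripts. This split describes the members with reads in both libraries only, since asking for reads in both takes out more of the lower calls than of the higher ones, and the treated library is the shallower.

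The share called was compared at like depth, since low counts limit what can be called. Among transcripts with 1000 or more reads over both libraries, 32 of 46 predicted lncRNAs (69.6%) were called against 12.1% of 2066 protein coding transcripts. Of these 32, 22 were higher and 10 lower. With 300 or more but under 1000 reads, 53.8% of 80 predicted lncRNAs were called against 16.7% of protein coding transcripts, with 33 higher and 10 lower. With 100 or more but under 300 reads the shares were 48.6% of 148 and 27.4% of 3582. From 30 to 99 reads the shares were close, at 41.9% of 303 and 41.4% of 2833. With 10 to 29 reads, 55.6% of 455 predicted lncRNAs were called, 84 higher and 169 lower, against 42.1% of 1825 protein coding transcripts. With 1 to 9 reads the shares were 33.1% of 236 and 11.3% of 2483. The median log2 folds there were -2.42, the value of 5 saline reads against 0, and -0.90, that of 1 against 0. Depth may thus be unlike within this class, and transcripts with the fewest reads cannot be called. From 10 reads upward, the share called was higher among predicted lncRNAs than among coding transcripts in each class except that of 30 to 99 reads, where it was about the same. At 100 or more reads the median log2 fold of 274 predicted lncRNAs was 0.45, and that of 9387 protein coding transcripts was -0.05. Of 48 Ensembl lncRNAs at this depth, 3 were higher and 9 lower.

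**Figure D2:**
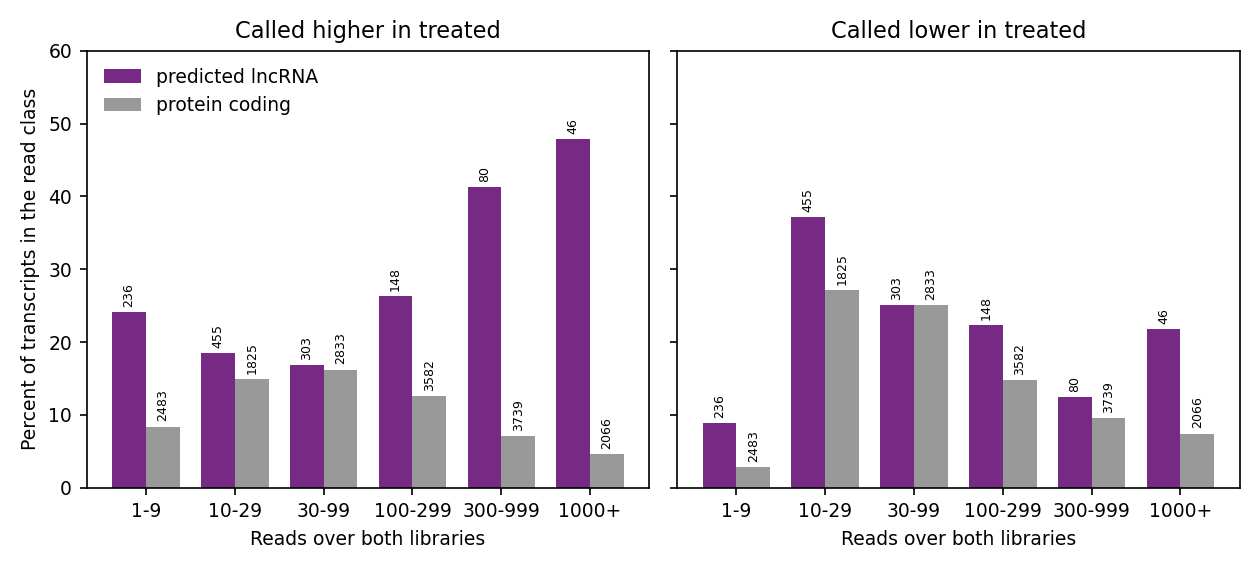
Percent of transcripts called higher (left) and lower (right) in the treated library, by reads over both libraries, for predicted lncRNAs and protein coding transcripts; the number over each bar is the number of transcripts in the class. Above 300 reads the share called higher is over 40% for predicted lncRNAs and under 8% for protein coding transcripts, while the shares at 30 to 99 reads are nearly equal.

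The largest differences were in transcripts with reads in 1 library alone. Of 339 predicted lncRNAs with at least 50 reads in 1 library, 24 (7.08%) had 0 reads in the other. The treated library lacked 14 of these and the saline library 10. The share over all transcripts was 3.34%. XLOC.26386.2 had 0 reads in the saline and 742 in the treated library and was at least 471-fold higher against a floor of 3 reads in the saline library. XLOC.20662.2 (0 against 500 reads) was at least 317-fold higher and XLOC.10836.2 (0 against 327) at least 208-fold. XLOC.20130.2 with 199 treated reads, XLOC.12451.2 with 177 and XLOC.12946.1 with 161 were at least 126-fold, 112-fold and 102-fold higher. Of these 6, XLOC.12946.1 was the sole listed transcript of its locus, and the others lay beside listed transcripts that had reads in both libraries. Others high by the same measure were XLOC.24247.1 (106 treated reads), XLOC.38615.1 (103), XLOC.2234.5 (87), XLOC.26919.1 (68) and XLOC.31958.3 (29), at 0 in the saline library. XLOC.26918.2 had 1 read in the saline and 130 in the treated library, a log2 fold of 6.85 (5.45 to 13.3).

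In the other direction, XLOC.3611.2 had 3669 reads in the saline library, a normalised count of 3182, and 0 in the treated library. Set against the floor of 3 reads, it was at least 642-fold lower. XLOC.20464.5 (547 against 0 reads) was at least 95.7-fold lower, XLOC.36927.2 (275 against 0) at least 48.1-fold and XLOC.39762.1 (261 against 0) at least 45.7-fold. Further transcripts without treated reads were XLOC.23.1 (145 saline reads), XLOC.21440.2 (139), XLOC.25221.2 (134), XLOC.1752.1 (98), XLOC.34685.1 (98), XLOC.4542.1 (80), XLOC.22421.3 (69) and XLOC.24673.1 (61). The smallest of these bounds was at least 10.7-fold lower, for XLOC.24673.1. No source used here says how reads shared by overlapping transcripts of a locus were assigned, and the part of that step in a value of 0 was not tested. Sums over the listed transcripts of each locus, which do not depend on the division of reads among those, are given next. Some loci skip a number, as XLOC.26386 does between XLOC.26386.3 and XLOC.26386.5. Reads assigned to a model that is not listed would be missing from the sum.

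Summed by locus, 235 of 1125 loci (20.9%) were higher and 288 (25.6%) lower in the treated library. Over all predicted loci and Ensembl genes the shares were 8.22% and 10.7%. The median log2 fold over the predicted loci was -0.37. Most loci, 1024, had a single listed transcript, and their median was 21 reads over both libraries. The other 101 held 244 transcripts and had a median of 177 reads. Of the single-transcript loci, 210 were higher and 269 lower (median log2 fold -0.51). Of those with several transcripts, 25 were higher and 19 lower (median 0.36), and the part of their greater depth in this was not tested. Among 232 predicted loci with 100 or more reads, 69 were higher and 47 lower, and among 893 with fewer reads 166 were higher and 241 lower. Of 8817 Ensembl genes with 100 or more reads, 564 were higher and 678 lower.

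Transcripts of the same locus were next compared with each other. A locus was counted as concordant when at least 2 of its transcripts were called, all in 1 direction, and as opposed when at least 1 was called higher and 1 lower. Of the 101 loci with several transcripts, 25 (24.8%) were concordant, 15 (14.9%) were opposed, 35 had 1 called transcript and 26 had none. Over all predicted loci and Ensembl genes with several transcripts, 6.5% were concordant and 15.6% opposed. As a share of all such loci the opposed ones were near this background, so that share is no result about the predicted loci. The concordant share was above it. Predicted lncRNAs were called more often (47.7% against 24.3% of all transcripts), and the part of this in the concordant share was not tested. Among loci with at least 2 called transcripts, 37.5% of 40 predicted ones were opposed, against 73.0% of 552 Ensembl genes. By the sign of the log2 fold alone, over transcripts with at least 10 reads, 55 of 94 predicted loci had a single sign and 39 (41.5%) had both signs, against 55.3% of 2009 Ensembl genes with both. By size, 7 of 78 predicted loci with 2 transcripts were opposed (8.97%, against 13.2% of Ensembl genes), 4 of 12 with 3 (33.3% against 21.0%) and 4 of 11 with 4 or more (36.4% against 31.3%), so the order of the classes was not the same at every size.

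Of the 25 concordant loci 19 were higher in the treated library and 6 lower, and the 10 with the most reads were all higher ones by their called transcripts. XLOC.17958 was at a summed normalised count of 1087 in the saline and 8643 in the treated library, a log2 fold of 2.99 (2.90 to 3.08), with its transcripts at 4.92, 1.08 and 3.59. XLOC.20662 was at 192 and 2517 (3.71, 3.51 to 3.93), and both of its transcripts were called higher. XLOC.26385 was at 130 and 1663 (3.67, 3.43 to 3.93), with transcripts at 3.58 and 4.25. In these 3 loci every listed transcript was more than 2-fold higher. XLOC.9391 followed at 459 and 1924 (2.07), then XLOC.2890 at 1399 and 5431 (1.96), XLOC.9295 at 602 and 1893 (1.65) and XLOC.10836 at 736 and 2264 (1.62). XLOC.16039 was at 479 and 1264 (1.40) and XLOC.2234 at 1820 and 4408 (1.28). XLOC.9306 differed from these in that 2 of its 6 transcripts were called higher while its sum, 499 against 682, was within 2-fold (0.45).

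Opposed loci ranged from 29 to 21272 reads. In 13 of the 15 a called transcript had 0 reads in 1 library, as in 10 of the 25 concordant loci. Among all called members this held for 203 of 319 lower and 77 of 286 higher ones. In 10 of the 15 opposed loci the sum over the locus was not called. There the transcripts differed where the locus as a whole was within 2-fold or its interval held equality. XLOC.3611 was such a locus. Its transcript XLOC.3611.2 had 3669 reads against 0, while XLOC.3611.1 was at normalised counts of 604 and 1919 (log2 fold 1.67, 1.53 to 1.81) and XLOC.3611.3 at 1470 and 2691 (0.87, 0.77 to 0.97). Summed, the locus stood at 5256 in the saline and 4610 in the treated library, a log2 fold of -0.19 (-0.25 to -0.12). XLOC.20130 showed the reverse arrangement, with XLOC.20130.1 lower at 1181 against 431 (-1.45, -1.65 to -1.26) and XLOC.20130.2 with reads only in the treated library, for a sum of 1181 against 760 (-0.64).

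In 5 opposed loci the sum was called, 4 higher and 1 lower. XLOC.20464 had the most reads of the opposed loci, and 3 of its 5 transcripts were higher (log2 folds 1.43, 1.84 and 1.61) while XLOC.20464.5 and XLOC.20464.4 had 547 and 15 saline reads and none in the treated library. Its sum was at 7415 and 21014 and was 2.83-fold higher, with a log2 interval of 1.46 to 1.54. XLOC.26386 summed to 1337 and 4076 (1.61, 1.52 to 1.70). Within it XLOC.26386.1 was at 44.2 and 1511 (5.06, 4.69 to 5.53), XLOC.26386.3 at 480 and 64.4 (-2.88, -3.40 to -2.43) and XLOC.26386.5 at 813 and 1275 (0.65). XLOC.22421 was higher in sum (981 against 2740, 1.48) although XLOC.22421.3 had 69 reads against 0. XLOC.26387 was at 62.4 and 173 (1.46). XLOC.21492 was the lower one, at 2192 and 317 (-2.79, -3.01 to -2.58), with 10 treated reads and no saline read for XLOC.21492.3. The remaining 3 of the 10 best covered, XLOC.121, XLOC.3405 and XLOC.34305, had 133, 236 and 87 reads and sums at log2 folds of -0.84, 0.41 and -0.99, the last of which passed the 2-fold threshold under 3 other scalings (-1.04 with equal library totals).

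**Figure D3:**
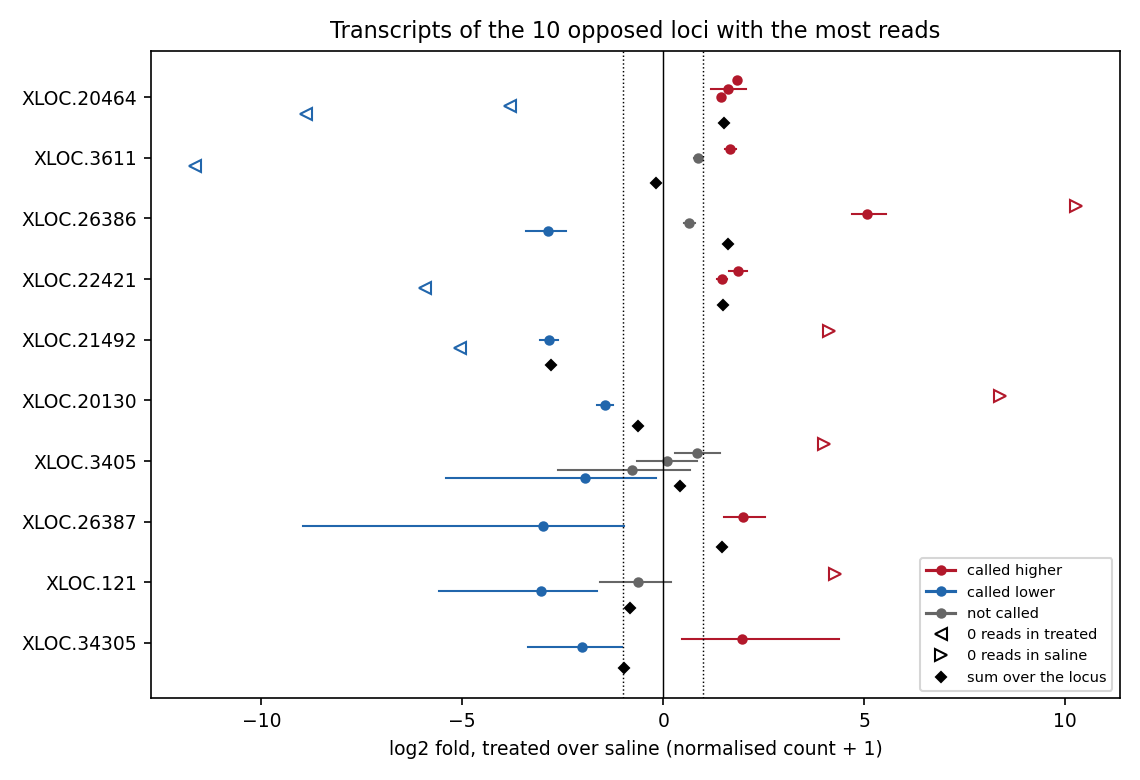
Log2 fold of treated over saline (x axis) for each transcript of the 10 opposed loci with the most reads (y axis); circles have exact 95% intervals for counting error, open triangles had 0 reads in 1 library and are drawn at the value on normalised counts plus 1, which is no bound, and diamonds are the sum over the locus. The diamond of XLOC.3611 lies near 0 at -0.19, between transcripts on both sides.

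The reads of a locus, summed over its listed transcripts, were also split into shares by transcript, a comparison that does not depend on the scaling between libraries. In 77 loci with several transcripts and at least 20 reads in each library, the leading transcript differed between the libraries in 21 (27.3%), against 20.1% of 2302 Ensembl genes. In 35 of the 77, the share of at least 1 transcript differed by 20 percentage points or more. That count is not given here for Ensembl genes. The median of the largest shift was 16.1 points, against 7.28 in Ensembl genes. These comparisons were not made at like depth. Over all units with several transcripts, the median was 177 reads for predicted loci and 480 for Ensembl genes, and the part of depth was not tested. In XLOC.3611, XLOC.3611.2 took 60.5% of the saline reads (95% Wilson interval 59.3 to 61.8) and 0 of 2791 treated reads, which by the floor of 3 reads allows a share of up to 0.107%. In XLOC.26386, XLOC.26386.5 led in the saline library with 60.8% (58.3 to 63.2) and XLOC.26386.1 in the treated library with 37.1% (35.2 to 39.0). In XLOC.20464 the leading transcript stayed XLOC.20464.1, with 56.6% and 53.8%. XLOC.17958.3 took 53.2% (50.5 to 56.0) of its locus in the saline and 81.0% (79.9 to 82.0) in the treated library. The shifts in XLOC.3611, XLOC.26386, XLOC.20464 and XLOC.17958 exceed counting error, but their spread between cultures is not known. The counts of 21 and 35 loci were made without regard to counting error. They include shallow loci such as XLOC.19481, whose differing leaders held 54.2% of 48 saline and 51.2% of 43 treated reads, among the 21.

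**Figure D4:**
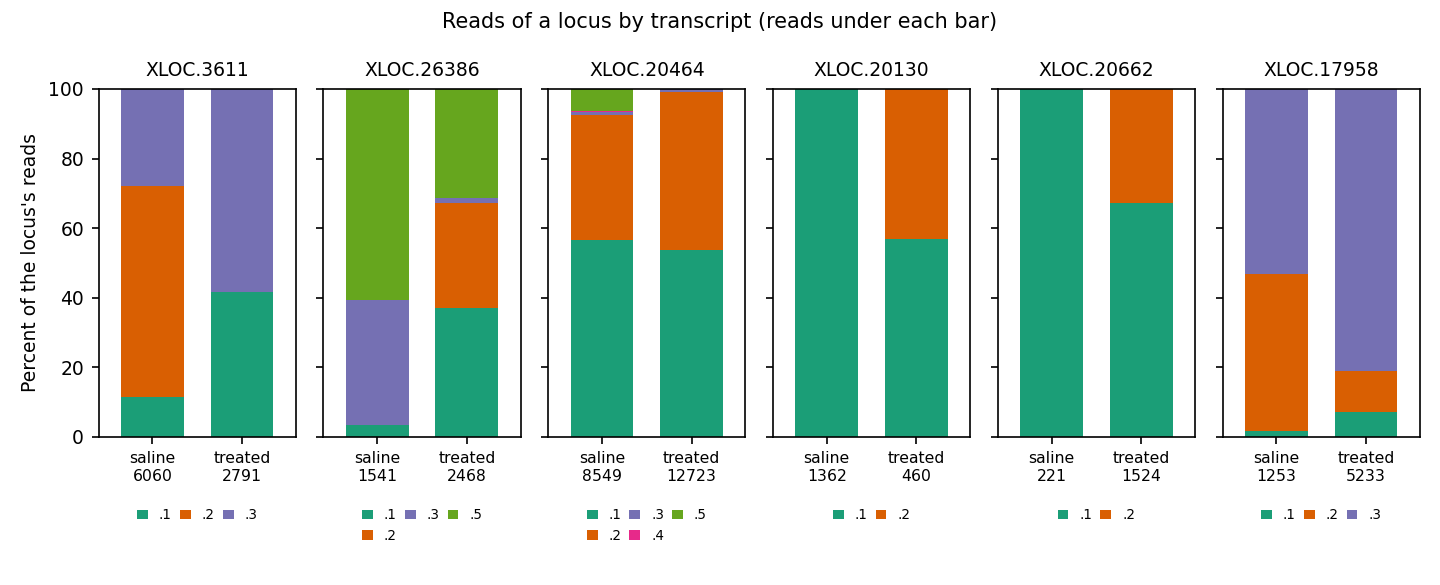
Percent of each locus's reads (y axis) taken by each listed transcript in the saline and treated libraries, for 4 opposed and 2 concordant loci; the colour gives the transcript's last number and the reads of the locus stand under each bar. XLOC.3611.2 holds 60.5% of its locus in the saline library and has 0 reads in the treated one, and XLOC.17958.3 takes 53.2% and 81.0%.

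The loci with the most listed transcripts varied in how alike their members were. XLOC.8825, with 6 transcripts, had none called, with log2 folds from -0.45 to 0.71 and a sum at normalised counts of 710 and 884 (0.31). XLOC.9306, also with 6, had values from -0.22 to 1.48. The 5 transcripts of XLOC.2234 were all above 0, and 4 were called higher, from 1.04 for XLOC.2234.3 upward, which was at 0.99 and not called with equal library totals. XLOC.3747 had 5 transcripts of which XLOC.3747.4, with 3 against 29 reads, was called higher at 3.76 (2.51 to 6.56), while its sum was at 189 and 294 (0.63).

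The authors' deposited table gives a p-value below 0.05 for 8 predicted lncRNAs (0.631%), against 0.319% of all transcripts. The lowest adjusted p-value of the class in the authors' deposited table was 0.92, so none passed after adjustment. No source used here names the program behind these values. The lowest p-value in the authors' deposited table was 0.0351 for XLOC.20446.1, which stood at normalised counts of 78.1 and 616 (log2 fold 2.96). XLOC.12306.2 was next with 0.0363 in the authors' deposited table and counts of 69.4 and 557 (2.99). Of the 8, 6 were higher in the treated library, and XLOC.26386.3 and XLOC.33516.1 were lower. Members with 0 reads in 1 library had p-values of 0.264 or more in the authors' deposited table, whatever their read number. The lists of 57 selected transcripts that the authors also deposited hold protein coding transcripts alone.

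Genes of nuclear RNA surveillance, whose products trim, degrade or terminate noncoding transcripts, mostly stayed within 2-fold. Of 29 listed symbols, newer names of Skiv2l2 and Cpsf3l included, 26 were measured, 3 were called higher and 1 lower, with a median log2 fold of 0.03. Over all 15409 symbols 7.31% were higher and 9.6% lower, with a median of -0.10. Skiv2l2, the exosome's helicase MTR4, was at normalised counts of 400 and 892 (log2 fold 1.16, 0.98 to 1.34). C1d, an exosome cofactor, was at 38.2 and 85.9 (1.15, 0.56 to 1.78). Mpp6, counted among the 3 higher ones, was at 167 and 335 (1.01, and from 0.95 to 0.99, so not called, under 3 other scalings). This symbol is also used for a membrane scaffold protein, so its place in the list is uncertain. Mphosph6, a separate symbol of the list, was at 77.2 and 71.0 (-0.12) and was not called. Ints1, a subunit of the Integrator complex that ends transcription early, had 207 reads against 0 and was at least 36.2-fold lower against the floor of 3 reads. The highest members were the exonuclease Xrn2 (805 and 1107, 0.46) and the cap-binding subunit Ncbp1 (803 and 743, -0.11). Exosome core subunits lay between -0.71 for Exosc4 and 0.75 for Exosc9.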

How the data were processed

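RNA sequencing was done on strand-specific TruSeq libraries of total RNA, per the labels' protocols; DESeq 1.22.1, Cuffnorm, STAR 2.5 and FastQC appear, without roles, in the submitters' processing notes. No source used here gives the build, the annotation or the way lncRNAs were predicted. For each transcript the authors deposited a log2 value of a normalised count plus 1; on the linear scale and less 1, 100% of these are whole multiples of 1 step per library within 1e-06 reads, so reads were recovered with size factors of 1.15 (saline) and 0.605 (treated). The authors' deposited p-values were used as listed; their fold is saline over treated, and the sign here is the opposite. A further 8 columns of per-sample values that repeat these were not used. No test between the groups was planned or run.

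Predicted transcripts were summed by the identifier up to its last dot. Calls used a pseudocount of 1, a minimum normalised count of 1, a log2 fold of 1 and an exact Clopper-Pearson 95% interval of the treated share of reads, turned into a ratio. It covers counting error only, and precision follows depth. Bounds set a library with 0 reads to 3 reads, that is 2.6 (saline) or 4.95 (treated) normalised counts. They leave out counting error of the other library, so they are not interval limits. For XLOC.3611.2 the exact interval ended at a log2 ratio of -9.03, nearer to equality than the bound of 642-fold. Named were the 12 highest means, the 12 largest calls each way at a level of at least 10, the 5 with most reads against 0 each way, the 10 opposed and 10 concordant loci with most reads, the 5 with most transcripts, and called or top members of the surveillance list; others were chosen after their values were seen. Members and lists were chosen with earlier results of these data known. Alternatives were other pseudocounts, filters, thresholds and scalings. The procedure was tested on simulated data. Tools were SciPy 1.17.1, pandas 2.3.3, NumPy 2.4.6 and, for figures, Matplotlib 3.10.9, under Python 3.11.15.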

Additional observations from a re-analysis of the deposited data

How the results depend on the processing

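Without the interval, the size rule alone gave 490 transcripts and 449 loci lower in place of 319 and 288, by construction of the looser rule. A 4-fold threshold left 149 transcripts and 118 loci higher in place of 286 and 235, and 11 concordant and 7 opposed loci in place of 25 and 15. The sign of the fold alone gave 55 single-sign and 39 mixed loci. With at least 10 reads, the median log2 fold over loci was -0.22 in place of -0.37, and the median levels were 19.9 (saline) and 19.8 (treated) in place of 14.7 and 13.2. Without XLOC.30726.2 and XLOC.377.4, an alternative added after the data were examined, the class took 1.83% and 2.40% of reads; without XLOC.30726.2 alone 2.40% and 2.68%, and without XLOC.377.4 alone 2.52% and 2.61%. Rescaling by library totals, median of ratios or TMM moved log2 folds by at most 0.05 in size and left higher calls between 268 and 286 and lower calls between 319 and 330. With the leading transcript alone, XLOC.3611 was at 0.87 in place of -0.19 and XLOC.9306 at -0.22 in place of 0.45. Of 35 named values with reads in both libraries, 34 stayed within their counting interval with a pseudocount of 5 and 32 with equal totals; those at 0 reads have an open interval and show nothing here. No paired analysis was possible because each group has 1 library, and no replicate could be left out. Depth limits the 994 of 1268 members with under 100 reads most.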

Other observations

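Loci whose XLOC numbers follow each other tended to share a direction, a pattern looked at after the values were seen. Of 129 pairs of listed loci with consecutive numbers, both were called in 31, with 14 pairs higher together, 12 lower together and 5 opposite. Pairs can share a locus, so they are not independent. Of 995 pairs that are next to each other in the list without consecutive numbers, both were called in 229, with 38 higher together, 70 lower together and 121 opposite. Of the 4 loci from XLOC.26384 to XLOC.26387, XLOC.26385, XLOC.26386 and XLOC.26387 were called higher in the treated library, with log2 folds of 3.67, 1.61 and 1.46. XLOC.26384, at normalised counts of 552 and 1107, only just passed the threshold and was not called under any of 3 other scalings (log2 folds of 0.95, 0.98 and 0.99). From XLOC.26917 to XLOC.26920, 3 of 4 were called higher, with XLOC.26918 at 1.59, XLOC.26919 at 0 against 68 reads and XLOC.26920 at 1.73, while XLOC.26917 was at 0.67. XLOC.9295, XLOC.9296 and XLOC.9297 were at 1.65, 1.16 and 1.37. The longest run, XLOC.7345 to XLOC.7353, had 9 loci with 215 reads in all, of which 3 were called lower and none higher. Over all predicted loci 25.6% were lower and 20.9% higher. Other runs did not share a direction or had no call. From XLOC.22 to XLOC.24, 1 locus was higher and 2 were lower. None was called from XLOC.22038 to XLOC.22040, the run with the most reads (7266), or from XLOC.3407 to XLOC.3410. No source used here says whether consecutive numbers stand for neighbouring loci, and this was not tested.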
